A study of Mus musculus with 12 samples.

Results

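The genes described here handle zinc and iron. They are the metallothioneins Mt1, Mt2 and Mt3, the zinc exporter gene Slc30a1, the ferritin chain genes Fth1 and Ftl1, the iron uptake genes Tfrc, Slc11a2 and Slc39a14, and the iron exporter gene Slc40a1. They were chosen by name, and each was followed through every probe set that the array annotation pairs with that gene alone. Of the 10 listed genes, 9 had such probe sets, 21 in all, out of 18193 genes and 34945 single-gene probe sets on the array. Each of the 3 probe sets that name Ftl1 also names another gene, so Ftl1 has no value here.

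Total RNA was measured on 12 Affymetrix mouse arrays, 3 in each of 4 groups, after eGFP-expressing cultured astrocytes had lain for 22 h on a mouse brain section and had been picked off it by suction under fluorescence. The 4 groups were adult cells on APdE9 sections, adult cells on wild-type (WT) sections, neonatal cells on APdE9 sections and neonatal cells on WT sections. Cells came from hippocampus and cortex of C57Bl/6j mice that were 6 to 8 weeks old (adult) or newborn. The labels give newborns as 2 d old in the culture protocol and as 3 d old in the treatment protocol. APdE9 mice carry the transgenes APPSwe and PS1-dE9, each under a mouse prion protein promoter, and the WT sections came from C57Bl/6j littermates. The transgenes were therefore in the section and not in the astrocytes, and by the labels an APdE9 group differs from its WT group in the section alone. Percoll and a G5 supplement were used for the adult cells alone, and the media differed too, so age, isolation and medium cannot be told apart. Samples were pooled before RNA isolation per the labels, and the age of the mice that gave the sections was not given in the sources used here.

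Metallothioneins are small cysteine-rich proteins that bind zinc and copper. Mt1 and Mt2 are induced in most tissues by zinc through the transcription factor MTF1, which binds metal response elements, and by glucocorticoids through the glucocorticoid receptor, whereas Mt3 is mainly a brain form. Cellular iron enters through the transferrin receptor or through divalent metal transporters, is stored in ferritin, and leaves through ferroportin, the product of Slc40a1. Astrocytes lie between the capillaries and the neurons and take part in brain metal supply.

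The promoter windows searched for the metallothioneins differ in matches to the core of the metal response element. That of Mt1 lies mostly inside the annotated gene, so its count covers few bases before the start of Mt1. The core was searched as TGCACNC or TGCGCNC on both strands in the 250 bases before each start site of a RefSeq promoter table, in sequence of mouse GRCm38.p6, and overlapping matches were counted. For Mt1, Slc30a1, one window of Tfrc and one of Fth1 that start site lies inside the gene as annotated, so the first 3 of these windows lie partly, and that of Fth1 wholly, within the gene. Of 32851 such windows in the genome, 21.4% held at least 1 core and 1.26% held at least 3. The window of Mt2 held 3 cores, with first bases 223, 128 and 50 bases before the gene's start, and the window of Mt3 held 0. The windows of Mt1 and Slc30a1 held 1 each, and both of these cores lie inside the annotated gene and not before its start. Tfrc has a pair of windows, and one held 2 overlapping cores and the other 0. Both windows of Fth1 and the window of Ftl1 held 0. Slc40a1, Slc11a2 and Slc39a14 had no entry, so 7 of the 10 genes matched. The windows of Mt2 (chr8:94172368-94172617, plus strand) and Mt3 (chr8:94152357-94152606, plus strand), genes that lie near each other on chromosome 8, are shown whole. The single cores of Mt1 (chr8:94179058-94179080, plus strand) and Slc30a1 (chr1:191906730-191906752, plus strand) are shown with 8 bases on each side. Capitals mark a core, on either strand. A match of these letters describes the window and does not show that a factor binds there.
Mt2: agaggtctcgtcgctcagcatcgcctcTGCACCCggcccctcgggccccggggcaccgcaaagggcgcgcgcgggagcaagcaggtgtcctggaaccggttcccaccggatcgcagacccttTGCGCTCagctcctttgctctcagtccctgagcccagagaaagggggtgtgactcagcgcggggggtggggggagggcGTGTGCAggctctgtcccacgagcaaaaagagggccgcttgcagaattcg
Mt3: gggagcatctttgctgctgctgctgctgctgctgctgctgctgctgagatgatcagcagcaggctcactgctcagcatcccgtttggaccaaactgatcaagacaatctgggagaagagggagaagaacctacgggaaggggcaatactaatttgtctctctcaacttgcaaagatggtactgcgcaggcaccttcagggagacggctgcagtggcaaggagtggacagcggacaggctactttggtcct
Mt1: tcccgctgTGCACACtggcgctc
Slc30a1: ggggttccGAGTGCAaagcaaag

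Values below are centred log2 signals: in the deposited table the median of each probe set over the 12 arrays is 0, so a value says how far an array lies above or below that median. Levels of different genes cannot be compared, and signal over background cannot be computed. A gene's value is the average over its probe sets. Differences are APdE9 minus WT section, or adult minus neonatal cells, and are given with their standard error (SE) from limma, fitted to all 12 arrays and 18193 genes. A gene was called when its Benjamini-Hochberg adjusted p over all genes was under 0.05. Array medians lay between -0.04 and 0.03, and correlations between arrays of one group ranged over 0.636 to 0.786 in adult cells on APdE9, 0.808 to 0.884 in adult cells on WT, 0.690 to 0.754 in neonatal cells on APdE9 and 0.570 to 0.816 in neonatal cells on WT.

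Mt3, the brain metallothionein, changed most among the 9 genes, and its section difference appeared in adult cells. In adult cells on APdE9 sections Mt3 lay at -0.35, -0.16 and -0.80 on the centred log2 scale, against -2.59, -2.51 and -2.33 in adult cells on WT sections. Each APdE9 array lay above every WT array, and the adult WT arrays were the lowest of all 12. The adult section difference was 2.04 ± 0.18 (SE), a fold of 4.11, with a limma adjusted p of 8.88e-06.

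In neonatal cells the signals of Mt3 overlapped between the sections. They were 0.70, 0.16 and 0.72 on APdE9 sections, against 0.35, 0.59 and 0.62 on WT sections. The neonatal section difference was 0.01 ± 0.18 (SE), with a 95% confidence interval of -0.37 to 0.40 and a limma adjusted p of 0.993. The test of the difference between both section differences, adult minus neonatal, gave 2.02 ± 0.25 (SE) and a limma adjusted p of 0.000395. Its interval was 1.48 to 2.57.

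Mt3 also fell in adult relative to neonatal cells, on both sections. On APdE9 sections the mean signal of Mt3 was -0.44 ± 0.33 in adult cells and 0.53 ± 0.32 in neonatal cells (SD, n = 3 each). Mt3 fell by 0.97 on the log2 scale there, or 1.96-fold lower, with a limma adjusted p of 0.00144. On WT sections the mean was -2.48 ± 0.14 in adult cells and 0.52 ± 0.15 in neonatal cells (SD, n = 3 each). That difference was -2.99 ± 0.18 (SE), or 7.96-fold lower, with a limma adjusted p of 6.49e-08. The adult section comparison and both age comparisons share arrays, so these values are not independent of each other. Mt3 rests on 1 probe set, and each of its calls held in all 12 fits that left out 1 array.

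**Figure D1:**
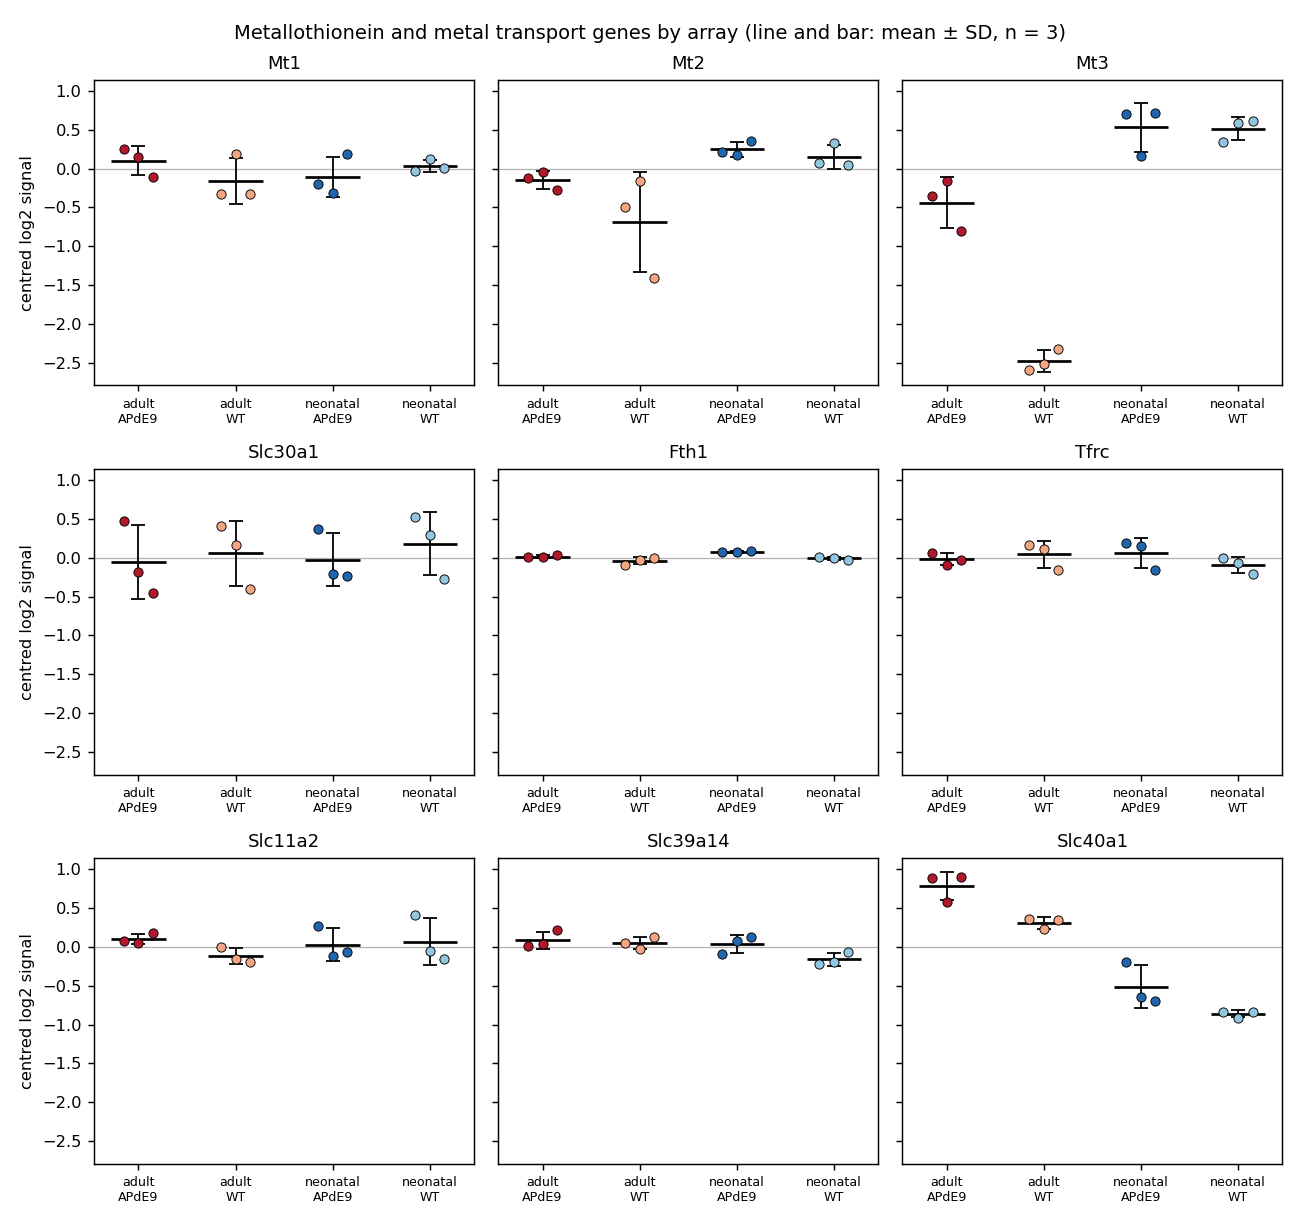
Centred log2 signal (vertical axis) of the 9 measured genes on each array, by group; points are arrays, and the line and bar are the mean ± SD of 3 arrays. Mt3 lay between -2.59 and -2.33 in adult cells on WT sections, below every other array, and Slc40a1 lay higher in adult than in neonatal cells.

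Mt1 gave 2 different answers from its 2 probe sets. On 1422557_s_at, whose suffix marks probes shared with other transcripts, adult cells on APdE9 sections had signals of 0.30, 0.45 and 0.30, against -0.71, -0.39 and -1.01 in adult cells on WT sections. These groups did not overlap, and the difference was 1.05 ± 0.15 (SE), a fold of 2.07, with a limma adjusted p over all probe sets of 0.000612, where 12.7% of all probe sets were called. On 1451612_at the signals were 0.20, -0.15 and -0.51 in adult cells on APdE9 sections, against 0.05, 0.76 and 0.35 in adult cells on WT sections. Here the groups overlapped and the difference was -0.54 ± 0.23 (SE), with a limma adjusted p of 0.164.

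The Mt1 probe sets differed in sign in the age comparison on WT sections and in the difference between ages as well, but not in neonatal cells. In neonatal cells 1422557_s_at had signals of 0.01, -0.03 and 0.16 on APdE9 sections and -0.01, 0.35 and -0.02 on WT sections. Its section difference there was -0.06 ± 0.15 (SE). The adult minus neonatal section difference of 1422557_s_at was 1.11 ± 0.21 (SE), with a limma adjusted p of 0.00894, where 6.73% of all probe sets were called, and that of 1451612_at was -0.31 ± 0.33 (SE). On WT sections 1422557_s_at fell by 0.81 in adult relative to neonatal cells, with a limma adjusted p of 0.00176 (22.9% of all probe sets were called), whereas 1451612_at differed by 0.43 ± 0.23 (SE). The mean of both probe sets was called in no comparison, and its adult section difference was 0.26 ± 0.16 (SE) with a limma adjusted p of 0.311. Which probe set follows Mt1 was not tested.

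Mt2, the other widely induced form, varied most among adult cells on WT sections. Its signals were -0.12, -0.05 and -0.27 in adult cells on APdE9 sections, against -0.49, -0.16 and -1.41 in adult cells on WT sections. One WT array, replicate 3, lay far below the rest and replicate 2 lay among the APdE9 arrays. The adult section difference was 0.54 ± 0.24 (SE) with a limma adjusted p of 0.141. It was 0.18 without the WT replicate 3 array, and 0.81 with a limma adjusted p of 0.0298 without the WT replicate 2 array.

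Neonatal cells had Mt2 signals of 0.22, 0.17 and 0.36 on APdE9 sections and 0.07, 0.33 and 0.05 on WT sections, and these overlapped. In adult relative to neonatal cells Mt2 fell by 0.84 on WT sections, or 1.79-fold lower, with a limma adjusted p of 0.0164. This call was lost without the neonatal WT replicate 2 array (limma adjusted p of 0.0673), and the difference was -0.48 without the adult WT replicate 3 array, with a limma adjusted p of 0.0158. On APdE9 sections the age difference of Mt2 was -0.40 ± 0.24 (SE), with a limma adjusted p of 0.265. The groups did not overlap there, and without the adult WT replicate 3 array, which enters only through the shared variance, its adjusted p was 0.0259.

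**Figure D2:**
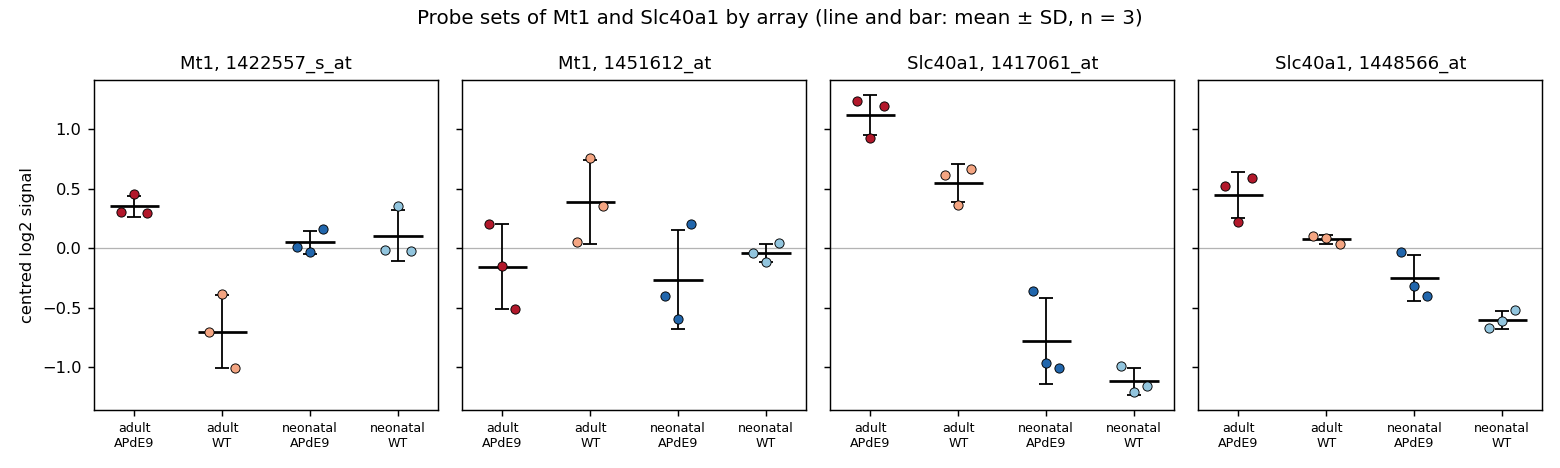
Centred log2 signal (vertical axis) of both probe sets of Mt1 and both probe sets of Slc40a1 on each array, by group; points are arrays, and the line and bar are the mean ± SD of 3 arrays. In adult cells the Mt1 probe set 1422557_s_at lay higher on APdE9 sections (difference 1.05) and 1451612_at did not (-0.54), while both Slc40a1 probe sets lay higher in adult than in neonatal cells.

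Slc30a1 encodes the zinc exporter of the plasma membrane and, like Mt1 and Mt2, is a known target of MTF1. Its signals were 0.47, -0.18 and -0.45 in adult cells on APdE9 sections, against 0.41, 0.16 and -0.40 in adult cells on WT sections. In neonatal cells they were 0.37, -0.21 and -0.24 on APdE9 sections, against 0.52, 0.30 and -0.27 on WT sections. In all 4 groups the array numbered 1 was highest and the array numbered 3 lowest, and the groups overlapped throughout. The section difference was -0.11 ± 0.28 (SE) in adult cells and -0.21 ± 0.28 (SE) in neonatal cells, with limma adjusted p of 0.832 and 0.872. With a block for the replicate number those adjusted p were 0.517 and 0.382.

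Fth1 encodes the ferritin heavy chain, which oxidises iron as it is stored. It spread least of the 9 genes, with all 12 signals between -0.09 and 0.09. Its signals on APdE9 sections were 0.01, 0.01 and 0.04 in adult cells, against -0.09, -0.03 and -0.00 in adult cells on WT sections, and the groups did not overlap. The same was so in neonatal cells, at 0.07, 0.07 and 0.09 on APdE9 sections and 0.01, -0.01 and -0.02 on WT sections. By probe set, the groups were apart only on 1427021_s_at in adult cells and only on 1448771_a_at in neonatal cells. The adult section difference was 0.05 ± 0.06 (SE) and the neonatal one 0.08 ± 0.06 (SE), with limma adjusted p of 0.606 and 0.666. Group SDs of Fth1 were 0.02 (APdE9) and 0.04 (WT) in adult cells, and 0.01 (APdE9) and 0.02 (WT) in neonatal cells. The SE also holds spread that limma borrows from all genes. Over all 5 comparisons the 95% intervals of Fth1 lay within -0.22 and 0.22.

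The uptake genes gave no call at the gene level. Tfrc encodes the transferrin receptor, and its section difference was -0.06 ± 0.11 (SE) in adult cells and 0.15 ± 0.11 (SE) in neonatal cells. Its 12 signals lay between -0.21 and 0.19. On the array's 3 control probe sets for the same transcript, which were left out of the fit, group differences lay between -0.13 and 0.17.

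Slc11a2 encodes the divalent metal transporter that moves iron out of endosomes. Its signals were 0.08, 0.05 and 0.17 in adult cells on APdE9 sections, against 0.00, -0.15 and -0.20 in adult cells on WT sections. The groups did not overlap, but the difference of 0.22 ± 0.14 (SE) had a limma adjusted p of 0.349. In neonatal cells the section difference was -0.04 ± 0.14 (SE). None of its 4 probe sets was called in any comparison.

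Slc39a14 encodes a transporter of zinc, manganese and iron that is not bound to transferrin. Its section difference was 0.04 ± 0.09 (SE) in adult cells and 0.20 ± 0.09 (SE) in neonatal cells, with limma adjusted p of 0.819 and 0.339. In adult relative to neonatal cells on WT sections the difference was 0.21 ± 0.09 (SE), with a limma adjusted p of 0.108. Of its 4 probe sets, 1438490_at rose there by 0.53 ± 0.13 (SE), with a limma adjusted p of 0.00953, and the others lay between 0.02 and 0.22. The 1438490_at signals were 0.36, 0.13 and 0.11 in adult cells and -0.43, -0.47 and -0.09 in neonatal cells on WT sections. On APdE9 sections it was 1427035_at that rose with age, by 0.43 ± 0.13 (SE) with a limma adjusted p of 0.0402 (16.4% of all probe sets were called). That call was lost in 9 of the 12 fits that left out 1 array (adjusted p up to 0.145), all except those without neonatal WT replicate 3, neonatal APdE9 replicate 3 or adult APdE9 replicate 2.

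Slc40a1 encodes ferroportin, the known route by which cells release iron. It rose in adult relative to neonatal cells on both sections. On APdE9 sections its signals were 0.88, 0.58 and 0.90 in adult cells, against -0.20, -0.64 and -0.70 in neonatal cells. On WT sections they were 0.36, 0.23 and 0.35 in adult cells, against -0.83, -0.91 and -0.84 in neonatal cells. No adult array overlapped a neonatal array. The age difference was 1.30 ± 0.13 (SE), a fold of 2.46, on APdE9 sections (limma adjusted p of 9.12e-06) and 1.17 ± 0.13 (SE), a fold of 2.26, on WT sections (limma adjusted p of 1.68e-05).

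The same arrays gave a smaller section difference for Slc40a1. Within adult cells each APdE9 array lay above every WT array, and the difference was 0.47 ± 0.13 (SE), a fold of 1.39, with a limma adjusted p of 0.0238. This call was lost without the adult WT replicate 2 array, the adult APdE9 replicate 1 array or the adult APdE9 replicate 3 array, with limma adjusted p of 0.0915, 0.0777 and 0.0758. Within neonatal cells the groups did not overlap either, and the difference was 0.35 ± 0.13 (SE) with a limma adjusted p of 0.207. The adult minus neonatal section difference was 0.13 ± 0.18 (SE), with a 95% interval of -0.27 to 0.53, so a difference between ages was not detected.

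Both probe sets of Slc40a1 rose with age, by unequal amounts. On APdE9 sections 1417061_at differed by 1.90 ± 0.16 (SE) and 1448566_at by 0.70 ± 0.12 (SE), and on WT sections by 1.67 ± 0.16 (SE) and 0.68 ± 0.12 (SE). In the adult section comparison 1417061_at differed by 0.58 ± 0.16 (SE) with a limma adjusted p of 0.0385, and 1448566_at by 0.37 ± 0.12 (SE) with a limma adjusted p of 0.0636. The call of 1417061_at was lost after median centring (0.0551), and without neonatal WT replicate 2, any 1 of the adult WT arrays, or adult APdE9 replicate 1 or 3, with adjusted p up to 0.155.

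Counted over the 9 measured genes, in adult cells 2 rose on APdE9 sections (Mt3 and Slc40a1) and 0 fell, where 17.7% of all 18193 genes were called, 8.26% higher and 9.4% lower. The median difference of the 9 genes was 0.22, and that of all genes 0.05. In neonatal cells limma called 0 of the 9 genes, where 3.76% of all genes were called, 1.21% higher and 2.55% lower. One of the 9, Slc40a1, had an unadjusted p under 0.05. Of the neonatal calls over all genes, 32.2% were in the higher direction, and 42.7% after quantile normalization. The medians there were 0.08 for the 9 genes and 0.00 for all genes.

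The section difference itself differed between adult and neonatal cells for 1 of the 9 genes, Mt3, where 10.1% of all genes were called, 5.19% higher and 4.88% lower. With age on APdE9 sections 1 gene rose (Slc40a1) and 1 fell (Mt3), where 23.5% of all genes were called, 11.7% higher and 11.9% lower. On WT sections 1 rose (Slc40a1) and 2 fell (Mt2 and Mt3), where 30.1% were called, 14.9% higher and 15.2% lower. The groups did not overlap for 4 of the 9 genes in the adult section comparison, where that held for 36% of all genes, and for 2 in the neonatal one, where it held for 17.7%. They did not overlap for 4 genes with age on APdE9 sections and for 4 on WT sections, where the shares of all genes were 37.2% and 42%. With 9 genes, none of these counts was read as a departure from the share among all genes.

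**Figure D3:**
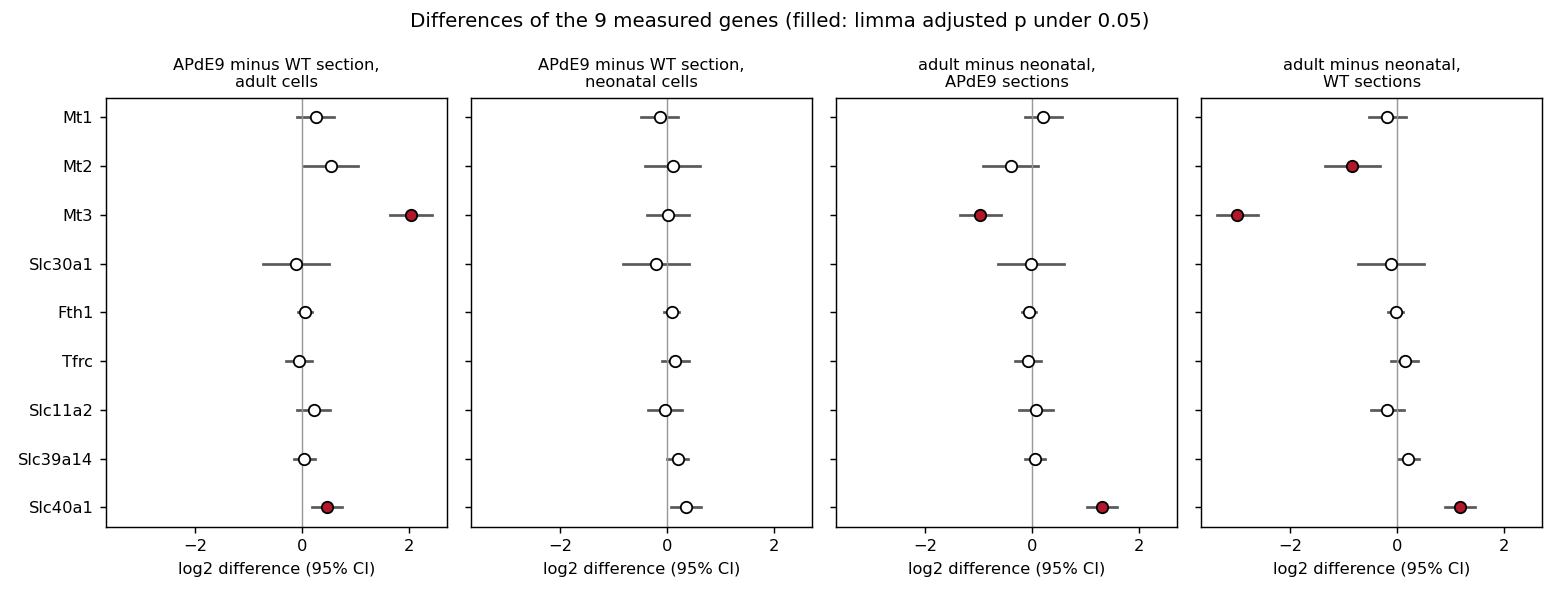
Log2 difference (horizontal axis) of the 9 measured genes in 4 comparisons, with 95% confidence intervals as bars; filled points passed a limma adjusted p under 0.05. Mt3 and Slc40a1 are filled for the section in adult cells and none is filled for the section in neonatal cells, while with age Slc40a1 lies to the right and Mt3 to the left on both sections.

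Markers of other cell types were read on the same arrays, and in such bulk samples fewer cells of a type and less RNA per cell cannot be told apart. Shares of all genes called were 17.7% for the section in adult cells and 3.76% in neonatal cells. With age they were 23.5% on APdE9 sections and 30.1% on WT sections. Of 19 measured microglia and macrophage markers, 18 fell with age on APdE9 sections (median -3.63) and 18 fell and 1 rose on WT sections (median -4.00). The mean over these markers lay between -1.63 and -1.58 in adult cells on APdE9 sections and between -2.34 and -2.10 in adult cells on WT sections. It lay between 2.02 and 2.16 in neonatal cells on APdE9 sections and between 1.45 and 2.02 in neonatal cells on WT sections. In adult cells 7 of these markers rose and 1 fell on APdE9 sections, with a median of 0.41. In neonatal cells 3 rose and 0 fell on APdE9 sections, with a median of 0.37.

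Markers of other cell types also moved, and the same shares of all genes stand beside their counts. Of 14 measured astrocyte markers, 5 rose and 4 fell on APdE9 sections in adult cells and 6 fell in neonatal cells. With age, 9 fell and 1 rose on APdE9 sections, and 11 fell and 2 rose on WT sections. Of 9 oligodendrocyte markers 6 rose, and of 10 mural and fibroblast markers 5 fell and 1 rose, on APdE9 sections in adult cells. In neonatal cells 2 oligodendrocyte markers rose and 2 fell, and 3 mural and fibroblast markers rose and 1 fell. Of 8 endothelial markers 0 were called for the section in adult or in neonatal cells, and of 10 neuron markers 2 fell in adult cells and 0 were called in neonatal cells. Of 8 ependymal and choroid plexus markers 2 fell in neonatal cells and 1 rose in adult cells. With age on APdE9 sections, risers and fallers were 4 and 2 (endothelial), 2 and 2 (mural and fibroblast) and 0 and 4 (ependymal and choroid plexus). They were 2 and 3 for oligodendrocyte and 1 and 1 for neuron markers. On WT sections, in the same order, they were 3 and 3, 6 and 0, 0 and 5, 0 and 3, and 2 and 2. Because levels were removed from the table, whether a defining marker is at background cannot be seen, and the part of these cells in the results for the metal genes was not tested.

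Other genes were taken from lists of zinc, iron, haem and copper handling. The lists also hold 9 regulators and targets, among them Hif1a, the hypoxia factor, and Nr3c1, the glucocorticoid receptor. Together the lists name 102 other genes, of which 98 were measured. In adult cells 16 of them rose and 8 fell on APdE9 sections, which is 24.5% against 17.7% of all genes. In neonatal cells 0 rose and 2 fell (Hfe and Slc22a17), which is 2.04% against 3.76%. Slc22a17, a receptor for Lcn2, fell by 0.42 with a limma adjusted p of 0.0328, and that call was lost without neonatal WT replicate 2 or 3, neonatal APdE9 replicate 1 or 2, or adult WT replicate 2, with adjusted p up to 0.12. The section difference differed between the ages for 18.4% of them, against 10.1% of all genes, with 14 higher and 4 lower in adult cells. With age, 32.7% were called on APdE9 sections against 23.5% of all genes, and 40.8% on WT sections against 30.1%. The lists were chosen with earlier results of these data known. None of these shares was therefore read as a departure from the share among all genes.

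Zinc importers of the Slc39 family moved in adult cells in both directions. Of 14 measured, 4 rose and 2 fell on APdE9 sections, with a median of 0.09 against 0.05 over all genes. Among all genes 17.7% were called there, 8.26% higher and 9.4% lower. Slc39a4, the importer of dietary zinc in the gut, had signals of -0.25, -0.01 and -0.54 in adult cells on APdE9 sections, against -1.87, -2.17 and -2.10 in adult cells on WT sections. As for Mt3, the adult WT arrays stood lowest and the groups did not overlap. Slc39a4 rose by 1.78 ± 0.20 (SE), with a limma adjusted p of 5.59e-05. Slc39a8, which takes up zinc and manganese, rose by 0.64 ± 0.10 (SE), Slc39a3 rose by 0.52 ± 0.08 (SE), and Slc39a1, a broadly used plasma membrane importer, fell by 0.60 with an SE of 0.09.

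In neonatal cells 0 of the 14 importers were called, where 3.76% of all genes were called. The adult minus neonatal section difference passed the test for 5 importers, 4 higher and 1 lower, where 10.1% of all genes did. It was 2.10 ± 0.28 (SE) for Slc39a4. With age, Slc39a12, an importer known from brain, fell, with differences of -1.62 on APdE9 sections and -2.12 on WT sections. Of 10 zinc exporters of the Slc30 family 0 were called for the section at either age, with medians of -0.03 in adult and 0.03 in neonatal cells. With age 1 exporter rose (Slc30a4) and 1 fell (Slc30a10) on APdE9 sections, where 23.5% of all genes were called. Each call was lost in 8 of the 12 fits that left out 1 array, with limma adjusted p up to 0.158 and 0.169. On WT sections 3 exporters rose and 1 fell, where 30.1% of all genes were called. There the calls of Slc30a6 and Slc30a4 were lost in 9 and 3 of such fits, and those of Slc30a7 and Slc30a10 in 0. Mt4, the metallothionein of squamous epithelium, was not called in any comparison.

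**Figure D4:**
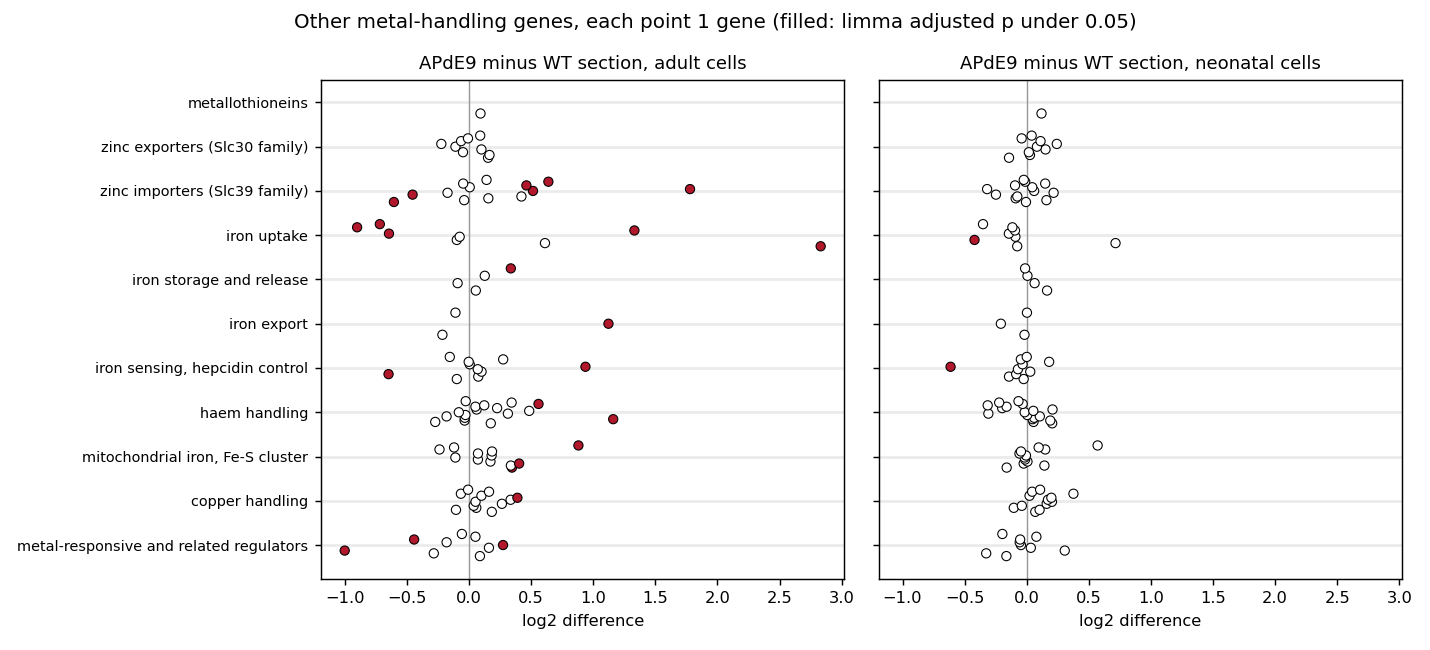
Log2 difference (horizontal axis) between APdE9 and WT sections for the 98 measured genes of the metal lists, in adult cells on the left and neonatal cells on the right; each point is 1 gene and filled points passed a limma adjusted p under 0.05. Filled points number 24 in adult cells, 16 to the right of 0 and 8 to the left, and 2 in neonatal cells, both to the left.

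Among 12 measured genes of iron uptake, 3 rose and 3 fell on APdE9 sections in adult cells, with a median of -0.01. Among all genes 17.7% were called there. Slc39a8, already counted among the zinc importers, is among the uptake genes that rose. Lcn2, a secreted protein that binds iron-carrying siderophores and is made by reactive astrocytes, had signals of -2.66, -2.45 and -2.45 in adult cells on APdE9 sections, against -5.72, -5.14 and -5.19 in adult cells on WT sections. It rose by 2.83 ± 0.14 (SE), with a limma adjusted p of 1.05e-07. In neonatal cells Lcn2 lay between 2.45 and 2.71 on both sections, above every adult array. With age it fell, with differences of -5.00 on APdE9 sections and -7.91 on WT sections.

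The endosomal ferrireductase gene Steap3 had signals of 1.61, 2.16 and 1.67 in adult cells on APdE9 sections, against 0.46, 0.50 and 0.48 in adult cells on WT sections. It rose by 1.33 ± 0.16 (SE), while Steap4, a ferrireductase of the same family, fell by 0.90 with an SE of 0.08. Tfr2, a transferrin receptor that senses iron in liver, fell by 0.72 with an SE of 0.11. Slc11a1, the metal transporter of phagocyte vacuoles, fell with age, with differences of -4.38 on APdE9 sections and -4.28 on WT sections, next to the fall of the microglia markers given above.

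Of the 4 iron export genes, Heph and Slc40a1 rose on APdE9 sections in adult cells, where 17.7% of all genes were called. Heph encodes hephaestin, a ferroxidase that works with ferroportin, and its signals were 1.13, 0.90 and 0.63 in adult cells on APdE9 sections, against -0.43, -0.20 and -0.08 in adult cells on WT sections. It rose by 1.12 ± 0.13 (SE), with a limma adjusted p of 0.000112, and its adult minus neonatal section difference was 1.33 ± 0.19 (SE). Cp, the ferroxidase ceruloplasmin of astrocytes, was not called for the section at either age and fell with age, with differences of -0.52 on APdE9 sections and -0.32 on WT sections. Neither call of Cp held with its most variable probe set, which gave -0.097 and -0.51, and the call on WT sections was lost without adult WT replicate 1 (limma adjusted p of 0.0552).

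Hfe, which binds the transferrin receptor and takes part in iron sensing, differed between the sections in both directions. In adult cells its signals were -0.38, -0.45 and -0.28 on APdE9 sections, against -1.48, -1.10 and -1.35 on WT sections. In neonatal cells they were 0.47, 0.35 and 0.44 on APdE9 sections, against 0.93, 1.12 and 1.05 on WT sections. Neither pair of groups overlapped. Hfe rose by 0.94 ± 0.10 (SE) in adult cells and fell by 0.61 with an SE of 0.10 in neonatal cells, with limma adjusted p of 4.66e-05 and 0.00565. The difference of both was 1.55 ± 0.14 (SE).

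For the section in adult cells 2 of 17 haem genes rose and 0 fell, where 17.7% of all genes were called. Blvrb (biliverdin reductase B) rose by 1.16 ± 0.15 (SE) and the haem transporter gene Slc48a1 by 0.56 ± 0.09 (SE). Of 9 transcription factors and targets linked to metal response, Mtf1, which encodes the factor that binds the metal response element, rose by 0.27 ± 0.06 (SE) in the same comparison. There Hif1a, the hypoxia factor, fell by 1.00 with an SE of 0.15, and Nr3c1, the glucocorticoid receptor, fell by 0.44 with an SE of 0.09. In neonatal cells 0 of these 9 genes were called, where 3.76% of all genes were called.

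The profiles of the metal genes over the 12 arrays were compared with those of other genes by Pearson correlation. Genes entered if they had a RefSeq symbol, a full set of values and no RIKEN or predicted name. The comparison is a description only, since arrays of a group share their condition. Mt3 was most like Chchd10 (0.993), Gprc5b (0.988) and Ecrg4 (0.987). Slc40a1 was most like Cd1d1 (0.978), Bdnf (0.978) and Chic1 (0.976), and Mt2 was most like Trim30a (0.913), Dyrk3 (0.906) and Trim34a (0.900). Among the metal genes themselves, Mt2 correlated with Mt3 at 0.78 and with Mt1 at 0.48, and Mt3 with Slc40a1 at -0.60, over the same 12 arrays.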

How the data were processed

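Transcripts were measured on 12 arrays, 3 per group, and sample titles gave the groups. The authors' signals were computed with RMA, per the submitters' processing notes. Values of 8 deposited columns were read as log2, although no log base is stated. The 4 other deposited columns count as score columns, because they hold 6 values above 100 in size whose decimal point seems lost. Those were set to missing, and the remainder was read as log2. Of 45095 complete probe sets, 45095 had a median of 0 within 1e-06, so no filter on dim probes was possible. The table holds 45101 probe sets, of which 64 are controls and 45037 entered the test. The array annotation gives 1 gene for 34945 of these, several for 932 and none for 9160. A mouse RefSeq symbol was found for 34741 of those with 1 gene.

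A model of group means was fitted with limma 3.58.1 in R 4.3.3 (package data.table, version 1.17.8) to 18193 genes, each averaged over its probe sets, and likewise to all probe sets. Prior degrees of freedom were 3.97 and residual 8, and p-values were adjusted by Benjamini-Hochberg with a threshold of 0.05. P-values rest on the spread between these arrays, each a pool labelled as a biological replicate. In limma the spread of each gene is drawn toward a value estimated from all genes. For a gene that varies little, such as Fth1, the SE is therefore larger than its own arrays give. The script was tested on simulated data, and figures were drawn with matplotlib 3.10.9.

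The genes, the lists and the comparisons were chosen with earlier results of these data known. The text names every listed gene. Apart from Mt4, other genes were drawn from up to 4 called genes per list and comparison with the largest difference, and from the 3 genes most like a listed gene. Not all of these are named, so a gene left out may still have been called. To see whether array numbers pair the samples, deviations from group means were correlated between same-numbered arrays, and pairing was accepted if every correlation passed 0.1. That was so between sections in neonatal cells (0.305, 0.147, 0.519) and between ages on APdE9 (0.460, 0.206, 0.473). It was not so between sections in adult cells (0.348, -0.147, 0.496) or between ages on WT (0.404, 0.0247, 0.405). The main fit held no term for the replicate number in any comparison, also where pairing was accepted, and the replicate block was an alternative only. Each result was recomputed after median centring or quantile normalization, with array weights, with the replicate block, with only the arrays compared, with the most variable probe set per gene, without the 40% of genes of lowest SD, at a threshold of 0.01 and without each array. Averaging control probe sets into Tfrc, and the same alternatives for other named genes and for probe sets, were added after seeing the data.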

Additional observations from a re-analysis of the deposited data

Results flagged for a closer look

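For the genes below the difference between APdE9 and WT sections was not the same in adult and in neonatal cells, by the interaction term of the limma fit at an adjusted p under 0.05. Values are the section difference in adult cells minus that in neonatal cells, on the log2 scale. Among the listed metal genes it was 2.02 for Mt3 and 1.11 for the Mt1 probe set 1422557_s_at. The other Mt1 probe set, 1451612_at, gave -0.31 and the mean of both gave 0.40. Neither was called (limma adjusted p of 0.692 and 0.331). Among zinc importers it was 2.10 for Slc39a4, 0.65 for Slc39a8, -0.60 for Slc39a1 and 0.56 for Slc39a6. Among genes of iron uptake and export it was 2.91 for Lcn2, 1.43 for Steap3, -0.79 for Steap4 and 1.33 for Heph. Among iron sensing genes it was 1.55 for Hfe and -0.56 for Fbxl5, whose product senses cell iron. Haem genes gave 1.11 for Blvrb, 0.59 for Slc48a1 and 0.56 for Urod, and genes of mitochondrial iron gave 0.51 for Abcb8 and 0.43 for Cisd2. With the most variable probe set of the gene, the value of Cisd2 turned to -0.12 (limma adjusted p 0.861). The regulators Hif1a and Mtf1 gave -1.31 and 0.32. Of the 12 fits that left out 1 array, the call of Mtf1 was lost in 12, Cisd2 in 11, Urod in 10 and Fbxl5 in 9. The call of Slc39a6 was lost without adult WT replicate 3 or adult APdE9 replicate 2, and that of Abcb8 without adult APdE9 replicate 2. Microglia, oligodendrocyte and mural markers moved between the same groups, and their part in these values was not tested.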

How the results depend on the processing

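The counts of called genes moved as follows. With array weights 1 of the 9 metal genes was called for the section in neonatal cells (Slc39a14, 0.25, limma adjusted p 0.0415), and all genes called were 2160 there (against 684) and 3427 for the section difference between ages (against 1831). At an adjusted p of 0.01, 1 metal gene was called for the section in adult cells, and all genes called were 248 (neonatal section), 1844 (adult section), 818 (difference between ages) and 2850 (age on APdE9). Fitting only the arrays compared gave 272 genes in the neonatal comparison and took Mt2 past the threshold for age on APdE9 (0.0224) and below it for age on WT (0.0638). With the most variable probe set per gene, 2 metal genes were called for the difference between ages and 5 for age on WT. Leaving out 1 array gave 263 to 761 genes (lowest without neonatal WT replicate 2) in the neonatal comparison, where it was 411 and 436 without neonatal APdE9 replicates 1 and 2. It gave 1 to 2 metal genes in the adult one and 1208 to 1811 genes for the difference between ages, with 1208 without neonatal WT replicate 2 and 1218 without adult WT replicate 2. The replicate block called 0, 2 and 1 metal genes for the neonatal section, adult section and difference between ages, and 2 and 4 for age on APdE9 and on WT, where it added Slc39a14 (0.0486). It called 1013, 4217, 2623, 5079 and 6216 of all genes, and changed no other call of a metal gene. Signs turned for the following differences, each uncalled except that of Cisd2. With array weights the neonatal section gave Mt2 -0.031, Mt3 -0.049 and Slc11a2 0.020. With the most variable probe set the adult section gave Slc30a1 0.0030 and Slc39a14 -0.23, and age on APdE9 gave Slc30a1 0.056, Slc11a2 -0.045 and Slc39a14 -0.058, while quantile normalization gave Slc30a1 0.020. The same probe set rule turned the difference between ages of Cisd2 to -0.12. Leaving out 1 array gave a range of -0.081 to 0.20 for Mt3 and -0.16 to 0.13 for Slc11a2 (neonatal section), and of -0.37 to 0.088 for Slc30a1, -0.16 to 0.0038 for Tfrc and -0.025 to 0.077 for Slc39a14 (adult section). It gave -0.17 to 0.32 for Slc30a1 (difference between ages), -0.29 to 0.17 for Slc30a1, -0.0023 to 0.19 for Slc11a2 and -0.013 to 0.10 for Slc39a14 (age on APdE9), and -0.35 to 0.11 for Slc30a1 (age on WT). Over all alternatives 832 values of metal genes kept their direction and side of the threshold, as did 243 of their called probe sets and 1709 of other genes, while 7, 25 and 230 no longer passed it. The causes were not tested. The number of arrays limits the precision, and signal over background is unknown.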

Other observations

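Copper and mitochondrial iron genes were also measured. Of 12 copper genes 1 rose on APdE9 sections in adult cells, Sco2 by 0.39 ± 0.11 (SE), and 0 were called in neonatal cells. Of all genes 17.7% were called for the section in adult cells and 3.76% in neonatal cells. The call of Sco2 was lost without any 1 of the adult WT arrays or without adult APdE9 replicate 2 or 3, with limma adjusted p up to 0.101. With age Sod3, the extracellular superoxide dismutase, fell, with differences of -0.95 on APdE9 sections and -0.83 on WT sections.

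Of 12 genes of mitochondrial iron and iron-sulfur clusters, 0 were called in neonatal cells, where 3.76% of all genes were called. In adult cells 3 rose on APdE9 sections, where 17.7% of all genes were called. They were the mitochondrial iron importer gene Slc25a37 by 0.88 ± 0.25 (SE), Cisd2 by 0.40 ± 0.09 (SE) and Abcb8 by 0.35 ± 0.08 (SE). The call of Slc25a37 was lost without adult WT replicate 2 or 3 or any 1 of the adult APdE9 arrays (limma adjusted p up to 0.0916). That of Abcb8 was lost without adult WT replicate 1 or adult APdE9 replicate 2 (up to 0.0544), and the most variable probe set of Cisd2 gave 0.081. Bmp6, a known inducer of hepcidin, rose with age by 0.88 on APdE9 sections and by 0.66 on WT sections.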
